A study of Mus musculus with 29 samples.

Results

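RNA was measured in pancreatic islets of 52-week-old male C57BL/6 mice that ate a standard diet or a high-fat diet for 1 week. The members are the 8 RNA libraries of old mice, out of 29 samples in the series. They are defined by their age and diet labels and were chosen with earlier results of these data known. Libraries 2 and 4 of the standard diet were almost identical in their counts, and so were libraries 1 and 4 of the high-fat diet. Each of these pairs was summed, which left 6 samples, called 1, 2-4 and 3 on the standard diet and 1-4, 2 and 3 on the high-fat diet. Fat gave 13.1% of kcal in the standard diet and 41% in the high-fat diet, and all mice were wild type. The labels do not say whether a library came from 1 mouse or from pooled mice, so the p-values measure the spread between these samples. Islets of 8-week-old mice on the same diets (3 RNA libraries per diet) serve only for the test of whether the diet difference changed with age.

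Islets are small clusters of endocrine cells within the pancreas. Their beta cells make and store insulin and release it when blood glucose rises, and for this they fold large amounts of proinsulin in the endoplasmic reticulum (ER). When demand for insulin grows, as on a fat-rich diet, beta cells of rodents can raise secretion and divide, and the ability to divide declines with age. Misfolded protein in the ER sets off the unfolded protein response, which raises ER chaperones, and depolarisation or growth factors set off immediate early genes, the first wave of transcription after a stimulus.

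Total counts were 70921584 to 153985593 per sample, the largest totals being those of the summed pairs. The tissue label fitted the RNA: Ins2, an insulin gene, had 109400 to 161300 CPM (counts scaled to a common library total), Gcg, the glucagon gene of alpha cells, 8683 to 14170 CPM, and Sst, the somatostatin gene of delta cells, 1189 to 1599 CPM. Digestive enzyme genes of acinar cells, the exocrine cells around islets, were also abundant. The 24 acinar genes summed to 73540 to 218700 CPM on the standard diet and 87150 to 200600 CPM on the high-fat diet. The 13 lymphocyte genes summed to 135.6 CPM in standard-diet sample 2-4, to 19.5 and 18.96 CPM in the other standard-diet samples, and to 29.13, 6.798 and 13.77 CPM in high-fat samples 1-4, 2 and 3. In such bulk tissue, fewer cells of a type and less RNA per cell cannot be told apart.

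**Figure D1:**
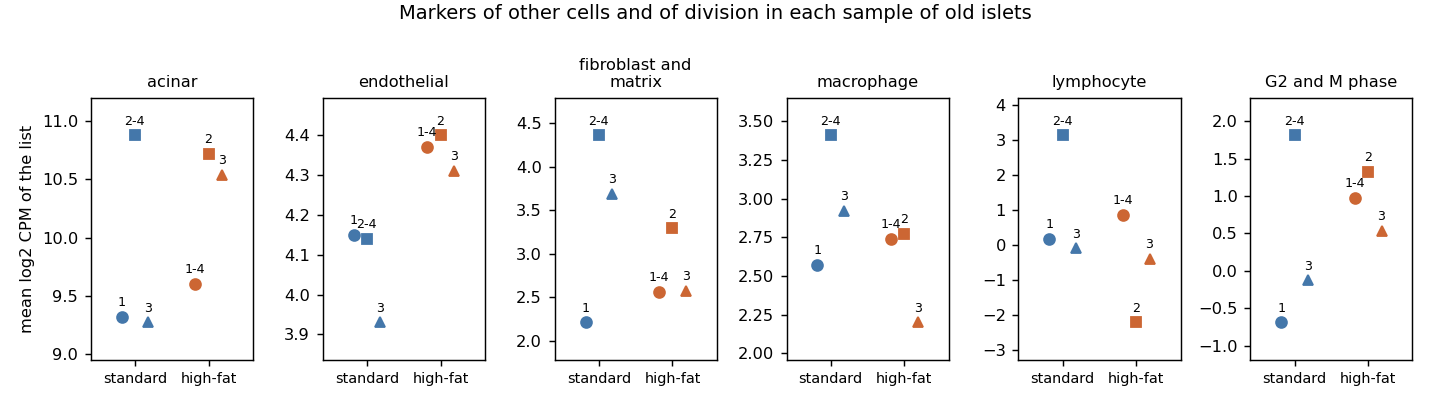
Mean log2 CPM of 6 gene lists in each sample of old islets (blue, standard diet; orange, high-fat diet; numbers name the samples; each panel has its own axis, which does not start at 0). Standard-diet sample 2-4 is the highest of all samples in acinar, fibroblast, macrophage, lymphocyte and G2/M genes, and the endothelial level is the only one of the 6 without overlap between the diets.

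Of 16929 genes tested, 758 (4.48%) passed an adjusted p of 0.05 (edgeR quasi-likelihood test, Benjamini-Hochberg adjustment). On the high-fat diet 359 genes rose (2.12%) and 399 fell (2.36%). An unadjusted p under 0.05 in edgeR was reached by 3797 of the 16929 genes, and the DESeq2 test called 2185 (1097 higher, 1088 lower). List counts below at an unadjusted p or by the DESeq2 test are to be read against these numbers. Rises were larger than falls: the median log2 change was +0.56 among the risen genes and -0.39 among the fallen ones, and 76 genes rose but 10 fell by more than 1 on the log2 scale. The number of calls rested on the full set of samples. The edgeR count was 0 without standard-diet sample 1, or without any 1 of the 3 high-fat samples. An unadjusted p under 0.05 was then reached by 2972 to 3643 genes. All 758 genes kept their sign, but leaving out 1 sample could hardly turn it. All 359 risen and all 399 fallen genes had no overlap between the samples of the diets. Without standard-diet sample 2-4 edgeR called 468 genes, and without standard-diet sample 3 it called 222. The authors' deposited table lists as past the threshold 1880 genes (964 higher, 916 lower), and these included 752 of the 758, which is 99.2% of the edgeR calls and 40% of the deposited ones.

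The gene lists used below hold 1072 matched genes, of which 1043 passed the filter on low counts, 93 rose and 19 fell. Every count of called list members is to be read against the shares over all genes, 2.12% risen and 2.36% fallen.

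Genes that carry the signal of insulin and of growth factors changed at a few points. Irs2, the adaptor that passes the insulin and IGF1 signal on in beta cells, had 31.6, 24.0 and 53.04 CPM in standard-diet samples 1, 2-4 and 3 and 176.1, 114.4 and 96.6 CPM in high-fat samples 1-4, 2 and 3. All samples below are given in this order. The lowest high-fat sample thus lay well above the highest standard-diet sample, and Irs2 rose 3.57-fold (log2 +1.84, SE 0.33, adjusted p 0.035). Only Trib1, a pseudokinase gene, rose with it among 19 tested genes of insulin and FoxO signalling (log2 +0.99, SE 0.12), and 0 fell. The insulin receptor gene Insr differed by +0.10 and Irs1, the other main substrate, by +0.43, and neither passed. Hbegf, an EGF family ligand, rose from 15.5 ± 3.12 to 32.2 ± 3.91 CPM (SD, n = 3) and was the only 1 of 11 EGF family ligands and receptors past the threshold. Of 17 genes of the TGF-beta and BMP pathways, 4 rose and 0 fell, against 2.12% risen over all genes. Inhbb, which encodes the beta B subunit of activins and inhibins, had 6.13, 5.33 and 6.03 CPM on the standard diet and 22, 17.9 and 14.6 CPM on the high-fat diet, with no overlap (log2 +1.64, SE 0.15, adjusted p 0.0216). The other 3, Skil, Bambi and Smad7, all encode inhibitors of that pathway, and they rose by 0.49 to 0.75 log2. Amotl2 (log2 +0.72) was the only 1 of 12 YAP targets past the threshold and Nrarp, a feedback gene of Notch (log2 +0.94), the only 1 of 13 Notch pathway genes. Over all genes 4.48% passed, so a single call says little about the EGF, YAP or Notch list.

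All 30 immediate early genes were higher on the high-fat diet, and 13 rose (43.3%, against 2.12% of all genes), with a list median of +1.03 against -0.003 over all genes. Fosb, a subunit of the AP-1 transcription factor, had 285.5, 266.7 and 682.6 CPM on the standard diet and 1840, 1458 and 1176 CPM on the high-fat diet. Klf6, a zinc finger transcription factor, had 115.1, 135.7 and 219.1 CPM against 552.3, 489.0 and 418.4 CPM (log2 +1.64, SE 0.24, adjusted p 0.0259). In both genes the diets did not overlap, and in both standard-diet sample 3 lay between the rest of its group and the high-fat samples. That order was common in the list: sample 3 was the highest standard-diet sample in 29 of 30 immediate early genes and sample 1-4 the highest high-fat sample in 26 of 30. Over all genes tested the same places were held in 5395 and 5874 of 16929. Ier2 rose by 0.90 log2 and Klf10, a factor induced by TGF-beta, by 0.97, and the further risen members were Btg2, Zfp36, Maff, Gadd45g, Jun, Jund, Egr1, Junb and Fos. Members that missed the threshold included large differences: Arc differed by +1.93, Fosl1 by +2.51 (0.16, 0.06 and 1.00 CPM against 3.44, 2.02 and 1.29 CPM) and Nr4a1 by +1.31. Leaving out 1 sample at a time, the list median stayed between +0.88 and +1.23 and 0 to 19 members rose.

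Genes that shut MAP kinase signalling down again were higher together with the immediate early genes. Of 18 such genes 8 rose (44.4%) and 0 fell, at a list median of +0.63. Among the risen genes 6 encode dual-specificity phosphatases that act on MAP kinases. Dusp8, which acts on the stress kinases JNK and p38, had 9.99, 12.1 and 21.8 CPM on the standard diet and 69.6, 52.0 and 42.7 CPM on the high-fat diet (log2 +1.91, SE 0.31, adjusted p 0.0293). Dusp5, which acts on ERK in the nucleus, rose by 1.44 (SE 0.27), Dusp4 by 1.12 (SE 0.20), and Dusp1 by 0.87 (SE 0.17). Dusp6, a cytoplasmic ERK phosphatase, and Dusp14 also rose, by 0.89 and 0.65, as did Errfi1, an inhibitor of the EGF receptor, by 1.399. Spry4, a Sprouty gene that damps receptor tyrosine kinases, rose by 0.56, whereas Dusp2, a phosphatase of immune cells, differed by -1.01 and did not pass. Of 20 targets of cAMP and the factor CREB, 19 were higher and 5 rose (25%): Gem, Rasd1, Irs2, Dusp1 and Fos. Gem, a small GTP-binding protein that restrains calcium channels, had 15.7, 17.2 and 29.0 CPM against 72.3, 58.7 and 46.8 CPM. The groups did not overlap, and the rise was 2.88-fold (log2 +1.53, SE 0.26, adjusted p 0.0315).

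**Figure D2:**
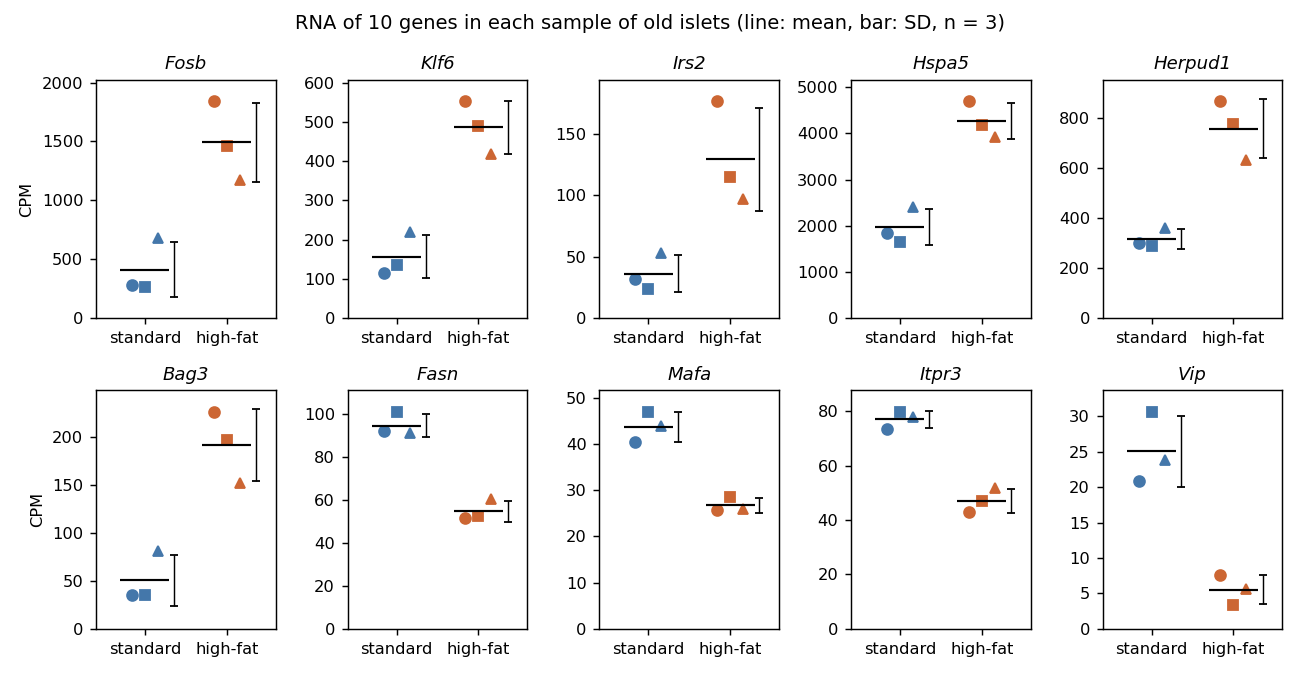
CPM of 10 genes in each sample of old islets (blue, standard diet, with circle, square and triangle for samples 1, 2-4 and 3; orange, high-fat diet, for samples 1-4, 2 and 3; horizontal line, mean; bar, SD, n = 3; axes start at 0). The diets do not overlap in any of these 10 genes, as they do not in any called gene. In Fosb, Klf6, Irs2, Hspa5, Herpud1 and Bag3 standard-diet sample 3 is the highest of its group and high-fat sample 3 the lowest of its own.

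Myc, which the series title names, switches on genes for growth, ribosomes and the cell cycle. It had 10.6, 16.9 and 12.5 CPM on the standard diet and 23.1, 27.5 and 26.1 CPM on the high-fat diet, without overlap. No other of 13 tested genes of the Myc network passed: Mxd1, which opposes Myc at shared sites, differed by +0.83, Mycl by -0.78 and Max, the partner of Myc, by -0.01. Of 25 genes for ribosome assembly, a process that Myc promotes, 14 were higher and 0 passed in edgeR (4 at an unadjusted p under 0.05), while the DESeq2 test called 2 as fallen. The list median was +0.03. Odc1, the enzyme that begins polyamine synthesis and a textbook Myc target, differed by +0.60, and 0 of 19 polyamine and nucleotide genes passed in edgeR (10 at an unadjusted p under 0.05), against 6 risen and 3 fallen in the DESeq2 test.

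Around the G1 phase, genes that promote and genes that halt the cycle rose side by side. E2f1, a factor for entry into S phase, rose by 0.54 (SE 0.08), and Cdc25a, a phosphatase that activates cyclin-dependent kinases, by 0.31 (SE 0.06). These were 2 of 12 tested G1 genes, against 2.12% risen over all genes. Fen1, the flap endonuclease of replication, was the only 1 of 26 DNA replication genes past the threshold (log2 +0.42, SE 0.08), near the share of 4.48% over all genes. Ccnd2, the main D-type cyclin of beta cells, had 849.4, 583.7 and 712.9 CPM against 786.0, 748.1 and 765.6 CPM, groups that overlapped (log2 +0.10, SE 0.14, adjusted p 0.723). Of 20 G2 and M phase genes 14 were higher and 0 passed in edgeR (1 at an unadjusted p under 0.05), while the DESeq2 test called 1 as risen. Mki67 spread over 2.06 to 19.5 CPM on the standard diet and 4.81 to 8.70 CPM on the high-fat diet, and its sign turned to +1.37 without standard-diet sample 2-4. The G2/M list hung on the same sample. Without it all 20 genes were higher, at a list median of +1.31, and 3 rose. Without standard-diet sample 1 or 3, 5 and 6 of the 20 were higher, at medians of -0.15 and -0.04. Sample 2-4 was the highest of the 6 in lymphocyte genes as well as in the G2/M level, and the part of lymphocytes in that level was not tested.

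Cdkn1a, which encodes the cell cycle inhibitor p21, had 32.2, 25.7 and 39.0 CPM on the standard diet and 73.1, 71.5 and 54.5 CPM on the high-fat diet (log2 +1.04, SE 0.17, adjusted p 0.0293). It is a target of p53, and 7 of 23 p53 targets rose (30.4%) with 0 fallen. Tnfrsf10b, a death receptor gene, rose 2.98-fold from 1.52, 2.23 and 2.29 CPM to 7.64, 5.36 and 5.04 CPM, and Plk3, a stress kinase gene, by 0.60 log2. The others were Btg2, Sesn1, Trp53inp1 and Bbc3, a promoter of apoptosis. Mdm2, the feedback inhibitor of p53, differed by +0.17 and Bax by +0.04, and neither passed. Cdkn2b, for the inhibitor p15, rose by 0.69, but its neighbour Cdkn2a, whose product p16 accumulates in ageing islets, stood at 0.50, 0.69 and 0.86 CPM against 0.69, 0.54 and 0.35 CPM (log2 -0.37, adjusted p 0.585). Igfbp3, a binding protein for insulin-like growth factors, rose from 98.95 ± 10.4 to 168.0 ± 17.9 CPM (SD, n = 3).

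Genes that fold and clear proteins in the ER were higher as well. Of 22 ER chaperone genes 20 were higher and 7 rose (31.8%), with a list median of +0.23. Hspa5, which encodes the chaperone BiP, had 1840, 1650 and 2400 CPM on the standard diet and 4690, 4178 and 3922 CPM on the high-fat diet, a 2.17-fold rise without overlap (log2 +1.12, SE 0.18, adjusted p 0.0281). Manf, a secreted protein that supports beta cell survival, rose from 226.0 ± 22.8 to 388.4 ± 18.5 CPM (SD, n = 3). Sdf2l1 and Creld2, which assist folding, rose by 0.61 (SE 0.07) and 0.60 (SE 0.08), and Pdia4, Dnajb11 and Calr, the calreticulin gene, by 0.46 to 0.54. Canx, the calnexin gene, differed by +0.01. Of 18 genes of ER-associated degradation, which removes misfolded proteins, 17 were higher and 2 rose (11.1%). Herpud1, a scaffold of that pathway, had 300.6, 289.6 and 360.5 CPM against 867.0, 775.4 and 632.0 CPM (log2 +1.26, SE 0.14, adjusted p 0.0216). Syvn1, its ubiquitin ligase, rose by 0.40 (SE 0.07).

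The integrated stress response is the branch in which the kinase PERK and its relatives slow translation and the factor ATF4 raises a set of genes. Of its 27 genes 24 were higher and 4 rose (14.8%). Ddit3, which encodes the factor CHOP, had 28.3, 25.8 and 42.4 CPM on the standard diet and 116.1, 84.1 and 59.9 CPM on the high-fat diet, a 2.70-fold rise (log2 +1.43, SE 0.27, adjusted p 0.0382). Ppp1r15a, which restores translation, rose by 0.93 (SE 0.12), Chac1, an enzyme that degrades glutathione, by 0.94 (SE 0.14), and Cebpb, the partner of CHOP, by 0.63 (SE 0.13). Atf4 itself differed by +0.36, and genes of the amino acid arm stayed closer to 0: Asns by +0.22, Phgdh by +0.23, Psat1 by +0.11. Of 20 aminoacyl-tRNA synthetase genes Hars alone passed, and it rose (log2 +0.33), which is near the share of 4.48% past the threshold over all genes. High-fat sample 2 was the highest of its group in 23 of these 27 genes, unlike in the immediate early genes, where sample 1-4 was.

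Promoter sequences are shown for risen genes of the folding and early response lists, because some of their members hold elements known from the ER stress, cAMP and ATF4 responses. The ER stress response element (ERSE) is read by the factors ATF6 and XBP1 and consists of CCAAT and CCACG with 9 bases between them. Among genes with an entry in the RefSeq promoter table (GRCm38.p6, 250 bases before to 50 after each gene start), 37 of 27018 (0.137%) held an exact ERSE on either strand. It was present in 7 of the 17 ER chaperone genes with an entry, namely Hspa5, Creld2, Calr, Hsp90b1, Dnajc3, Pdia6 and Canx, of which the first 3 rose. Of 13 genes of ER-associated degradation, 2 held it, Syvn1 and Derl3. The promoters of 3 risen genes, Hspa5, Creld2 and Syvn1, are shown with the ERSE in capitals, 5′ to 3′ on the strand of the gene. They lie at chr2:34771840-34772139 (plus strand), chr15:88819396-88819695 (plus) and chr19:6046326-6046625 (plus).
Hspa5: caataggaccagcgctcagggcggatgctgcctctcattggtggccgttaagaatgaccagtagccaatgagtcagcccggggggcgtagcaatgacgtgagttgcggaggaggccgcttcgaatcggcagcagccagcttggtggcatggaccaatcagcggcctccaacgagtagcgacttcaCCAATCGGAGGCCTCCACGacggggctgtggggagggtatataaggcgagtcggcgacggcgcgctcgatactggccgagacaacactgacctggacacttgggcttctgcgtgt
Creld2: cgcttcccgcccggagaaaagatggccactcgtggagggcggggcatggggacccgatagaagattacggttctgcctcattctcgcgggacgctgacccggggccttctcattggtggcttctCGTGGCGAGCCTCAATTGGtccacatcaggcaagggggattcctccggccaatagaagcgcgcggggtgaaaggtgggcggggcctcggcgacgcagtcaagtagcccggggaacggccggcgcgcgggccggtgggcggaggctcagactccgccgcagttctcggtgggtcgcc
Syvn1: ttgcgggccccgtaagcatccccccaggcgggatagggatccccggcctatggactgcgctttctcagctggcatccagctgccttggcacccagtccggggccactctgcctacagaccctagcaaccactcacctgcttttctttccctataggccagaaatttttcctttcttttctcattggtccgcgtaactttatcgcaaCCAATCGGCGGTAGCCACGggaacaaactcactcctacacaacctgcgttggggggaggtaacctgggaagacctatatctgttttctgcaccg
The match of Hspa5 spans -65 to -47 from the start site and that of Syvn1 -44 to -26. Creld2 carries it in the opposite orientation, at -126 to -108.

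The cAMP response element (CRE), TGACGTCA, is bound by CREB and ATF factors. It occurred in 21 of 271 risen genes with an entry (7.75%), in 10 of 310 fallen genes (3.23%) and in 412 of 11730 tested genes (3.51%). Holders were 2 of 24 immediate early genes with an entry (Btg2 and Maff), 3 of 16 genes of MAP kinase feedback (Dusp1, Dusp8 and Errfi1) and 1 of 24 genes of the integrated stress response (Ppp1r15a), but also the fallen genes Hlf and Ffar3. Among targets of cAMP and CREB 2 of 14 with an entry held it (Dusp1 and Scg2), and the risen members Irs2 and Fos did not. The CRE was likewise in 3 of 16 granule and exocytosis genes with an entry (Chgb, Pcsk1 and Scg2), none of which passed in edgeR. In the immediate early genes the kappaB motif was the most frequent of those searched, in 9 of 24, against 12.4% of the tested genes. Shown are Btg2, a brake on proliferation, the phosphatase genes Dusp1 and Dusp8, and Ppp1r15a. Their promoters lie at chr1:134079106-134079405, chr17:26508423-26508722, chr7:142095235-142095534 and chr7:45526219-45526518, all on the minus strand, and are shown 5′ to 3′ on that strand with the CRE in capitals.
Btg2: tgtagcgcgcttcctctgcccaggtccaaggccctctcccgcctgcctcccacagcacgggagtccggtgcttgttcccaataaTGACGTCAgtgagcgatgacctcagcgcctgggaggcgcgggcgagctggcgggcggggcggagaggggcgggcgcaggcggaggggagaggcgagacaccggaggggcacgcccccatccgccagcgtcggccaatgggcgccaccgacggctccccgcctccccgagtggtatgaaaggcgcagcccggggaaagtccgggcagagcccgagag
Dusp1: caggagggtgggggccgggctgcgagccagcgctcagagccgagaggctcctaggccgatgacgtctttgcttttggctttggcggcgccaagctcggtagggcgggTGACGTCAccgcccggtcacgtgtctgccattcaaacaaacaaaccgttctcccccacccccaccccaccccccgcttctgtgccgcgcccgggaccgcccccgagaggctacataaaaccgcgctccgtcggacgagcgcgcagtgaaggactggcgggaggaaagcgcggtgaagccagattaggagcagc
Dusp8: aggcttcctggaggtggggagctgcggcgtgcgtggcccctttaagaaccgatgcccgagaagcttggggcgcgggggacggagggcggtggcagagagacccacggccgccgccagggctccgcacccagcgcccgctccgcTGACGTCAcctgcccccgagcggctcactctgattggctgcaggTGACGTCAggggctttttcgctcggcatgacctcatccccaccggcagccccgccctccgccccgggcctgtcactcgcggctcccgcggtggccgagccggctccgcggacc
Ppp1r15a: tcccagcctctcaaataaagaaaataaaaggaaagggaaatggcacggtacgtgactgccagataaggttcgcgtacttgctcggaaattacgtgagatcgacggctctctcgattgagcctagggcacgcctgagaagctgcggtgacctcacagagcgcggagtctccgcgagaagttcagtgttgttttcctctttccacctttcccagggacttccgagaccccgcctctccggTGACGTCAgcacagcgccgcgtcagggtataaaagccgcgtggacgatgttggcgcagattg
Dusp8 holds 2 copies, and in Ppp1r15a the match ends at -5, next to the start. Chac1 holds the ATF4 element TGATGCAA, found in 279 of 27018 promoters (1.03%) and in 6 of 24 genes of the integrated stress response with an entry. Of these 6 genes Chac1 alone rose, the others being Atf3, Nupr1, Pycr1, Slc7a11 and Vldlr. The element was also in 4 of 12 aminoacyl-tRNA synthetase genes with an entry (Aars, Iars, Tars and Yars), none of which rose. Chac1 is given with the ATF4 element, read from the opposite strand, in capitals at chr2:119350992-119351291 (plus).
Chac1: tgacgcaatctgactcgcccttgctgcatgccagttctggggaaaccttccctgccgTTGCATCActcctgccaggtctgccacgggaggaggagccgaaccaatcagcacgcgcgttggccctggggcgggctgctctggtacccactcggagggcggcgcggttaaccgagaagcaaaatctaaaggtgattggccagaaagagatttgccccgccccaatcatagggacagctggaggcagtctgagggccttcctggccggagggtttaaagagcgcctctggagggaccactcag

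Heat shock genes, whose chaperones serve the cytosol and mitochondria, were higher in 21 of 23 cases, and 6 rose (26.1%) at a list median of +0.64. Bag3, a co-chaperone of HSP70, had 35.6, 35.2 and 81.2 CPM on the standard diet and 225.5, 196.0 and 151.5 CPM on the high-fat diet. Dnajb4, another HSP70 partner, had 73.8, 63.9 and 109.3 CPM against 282.9, 209.7 and 185.1 CPM (log2 +1.46, SE 0.23, adjusted p 0.0281). The diets did not overlap in either gene, and in both the highest standard-diet sample was again sample 3, as in 21 of the 23 genes. Hspa1a and Hspa1b, the inducible HSP70 genes, rose by 1.27 and 1.17, but their sequences are nearly identical, so the split of reads between them is uncertain. Hspb1 rose by 1.104 and Hspd1 by 0.64, while Hsf1, the factor that drives the response, differed by +0.07. Of 31 proteasome subunit genes 25 were higher, all within -0.06 to +0.16, and 0 passed in edgeR (4 at an unadjusted p under 0.05), against 2 risen in the DESeq2 test. Sqstm1, the autophagy receptor p62, rose from 315.8 ± 14.9 to 423.4 ± 22.6 CPM (SD, n = 3), and Wipi1, which acts at the forming autophagosome, rose by 0.47. These were 2 of 22 autophagy and lysosome genes, against 2.12% risen over all genes. Of 22 antioxidant genes Osgin1 rose by 0.94 and Gpx1, a glutathione peroxidase gene, by 0.42. Hmox1, the heme oxygenase gene, differed by +1.26 and did not pass.

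**Figure D3:**
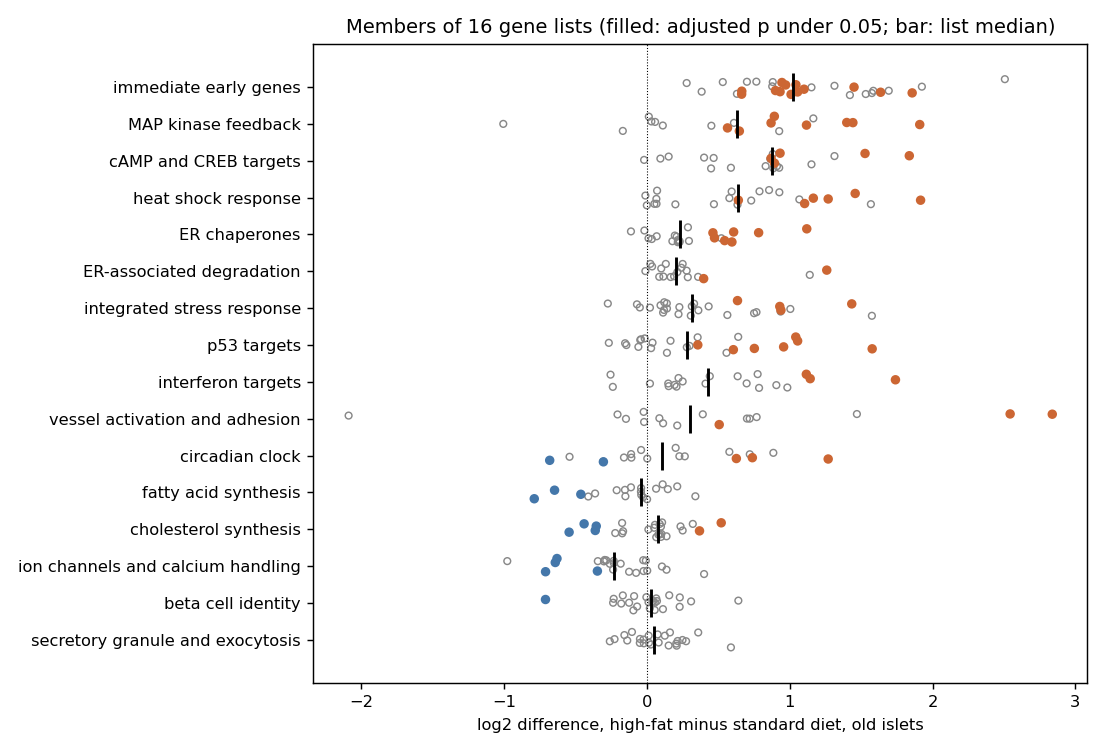
log2 difference (high-fat minus standard diet) of every tested member of 16 gene lists in old islets (filled circles, adjusted p under 0.05, orange for risen and blue for fallen genes; open circles, not past the threshold; black bar, list median; vertical scatter within a row has no meaning). All 30 immediate early genes lie right of 0, whereas the ion channel list has its median at -0.23 and the beta cell identity list at +0.03.

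In lipid metabolism the enzymes that build fatty acids from citrate fell. Fasn, the fatty acid synthase gene, had 92.0, 100.9 and 91.0 CPM on the standard diet and 51.4, 52.7 and 60.3 CPM on the high-fat diet. Acly, which splits citrate into acetyl-CoA, had 1463, 1502 and 1328 CPM against 875.2, 890.1 and 977.0 CPM (log2 -0.65, SE 0.10, adjusted p 0.0277). Acaca, the acetyl-CoA carboxylase gene, had 32.0, 30.5 and 28.4 CPM against 22.6, 19.2 and 24.1 CPM. None of the 3 overlapped between the diets, and together they were the 3 fallen genes of 19 in the list (15.8% past the threshold), with 0 risen. Later steps did not pass: the desaturase gene Scd1 differed by -0.15, the elongase gene Elovl6 by -0.11 and Acss2, which makes acetyl-CoA from acetate, by -0.04. Srebf1, the factor that drives the pathway, differed by -0.41 and did not pass (adjusted p 0.0579), and Mlxipl, for the glucose-sensing factor ChREBP, differed by 0.001.

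Cholesterol genes split, with 2 risen and 4 fallen of 25, against 2.12% risen and 2.36% fallen over all genes. Srebf2, the master regulator of the pathway, went from 118.6 ± 9.92 down to 81.3 ± 4.43 CPM (SD, n = 3), a fall of 0.55 log2 (SE 0.08, adjusted p 0.0245). Hmgcs1, which makes the precursor HMG-CoA, rose by 0.52 (SE 0.09) and Insig1, which holds the sterol regulators in the ER, by 0.37. Genes for burning and handling fat rose in a few cases. Cpt1a, which brings fatty acids into mitochondria, rose from 38.3 ± 0.67 to 47.9 ± 2.99 CPM, and Acadvl, which starts their oxidation, from 42.6 ± 0.97 to 50.3 ± 1.14 CPM (SD, n = 3). They were the only 2 of 22 oxidation genes past the threshold, against 4.48% of all genes. Mgll, which cleaves monoglycerides, rose by 0.54 (SE 0.07), and Lpin1, a phosphatidate phosphatase, by 0.57 (SE 0.07), while G0s2, an inhibitor of the lipase ATGL, fell to 0.22 from 0.54 CPM. Fabp4, a fatty acid carrier of fat and vessel cells, rose from 8.05, 7.25 and 7.20 CPM to 12.9, 13.5 and 12.2 CPM; of 7 adipocyte markers it was the only 1 that passed the filter on low counts. The young difference of Fabp4 was +0.83, close to the old one of +0.78, and the interaction with age was -0.05 (SE 0.28, adjusted p 0.965). Of the genes for using glucose and oxygen none passed in edgeR: 0 of 19 glycolysis genes, 0 of 18 hypoxia targets and 0 of 23 nuclear genes of oxidative phosphorylation (1, 3 and 5 at an unadjusted p under 0.05). The DESeq2 test called 1 fallen glycolysis gene, 1 risen and 1 fallen hypoxia target and 3 risen genes of oxidative phosphorylation.

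Of 18 clock genes 5 passed, 3 risen and 2 fallen (27.8%, against 4.48% of all genes). Nfil3 and Hlf encode factors that compete for the same D-box sites, Nfil3 as a repressor and Hlf as an activator. Nfil3 had 20.9, 23.5 and 31.3 CPM on the standard diet and 68.6, 61.0 and 52.8 CPM on the high-fat diet (log2 +1.27, SE 0.16, adjusted p 0.0216). Hlf moved the other way, from 14.96, 14.2 and 15.98 CPM to 9.83, 8.70 and 9.57 CPM (log2 -0.68, SE 0.08, adjusted p 0.0216), and its relative Tef fell by 0.30. Nr1d1, for the repressor REV-ERB alpha, rose from 83.7 ± 7.67 to 139.5 ± 16.5 CPM (SD, n = 3), and Bhlhe40 rose by 0.63. The core activators did not pass: Arntl differed by -0.31 and Clock by -0.16. The labels used here give no hour of collection.

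Among genes that define the beta cell, Mafa alone passed the threshold in edgeR, and it fell. Of 24 identity genes 14 were higher and 10 lower, 0 rose and 1 fell. That count is near the share of 4.48% past the threshold over all genes. The DESeq2 test called 2 of the 24 as risen and 3 as fallen. Mafa, a transcription factor of mature beta cells that binds the insulin promoter, had 40.4, 46.9 and 44.0 CPM on the standard diet and 25.6, 28.6 and 25.9 CPM on the high-fat diet. The diets did not overlap, and the level on the high-fat diet was 0.61 times that on the standard diet. Pdx1, another such factor, had 155.4, 138.6 and 148.3 CPM against 132.2, 137.5 and 123.7 CPM, without overlap but short of the threshold (log2 -0.17, SE 0.07, adjusted p 0.193). Nkx6-1 differed by +0.01 and Neurod1 by +0.02. Ins1 and Ins2 differed by +0.31 and +0.23 and did not pass in edgeR (adjusted p 0.548 and 0.748), although neither overlapped between the diets. Ins1 had 38520 to 50170 CPM on the standard diet and 54650 to 59220 CPM on the high-fat diet. Ins2 had 109400 to 146800 CPM against 149500 to 161300 CPM. The authors' deposited DESeq2 table gives adjusted p of 0.00695 for Ins1 and 0.0921 for Ins2. None of 24 granule and exocytosis genes passed in edgeR (8 at an unadjusted p under 0.05), against 6 risen and 3 fallen in the DESeq2 test. The prohormone convertase gene Pcsk1 differed by +0.21 and Pcsk2 by +0.07.

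Genes for ion channels and calcium handling were lower in 19 of 23 cases, with 4 fallen, 0 risen and a list median of -0.23. Itpr3 and Itpr1 encode IP3 receptors, the channels that release calcium from the ER. Itpr3 had 73.5, 79.6 and 77.7 CPM on the standard diet and 42.8, 46.9 and 51.6 CPM on the high-fat diet (log2 -0.71, SE 0.08, adjusted p 0.0216). Itpr1 had 102.0, 103.1 and 103.5 CPM against 61.9, 58.1 and 79.4 CPM (log2 -0.63, SE 0.11, adjusted p 0.0342). In both the lowest standard-diet sample exceeded the highest high-fat sample. Cacna1d, a pore subunit of the L-type calcium channel, fell by 0.35 and Trpm2, a cation channel, by 0.64. Outside the list, the calcium channel subunit gene Cacnb3 fell from 43.2 ± 1.81 to 31.3 ± 0.80 CPM (SD, n = 3). The subunits of the ATP-sensitive potassium channel, Abcc8 and Kcnj11, differed by -0.12 and -0.23 and did not pass, and Atp2a2, the main calcium pump of the ER, differed by 0.002.

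Receptors for nutrients and hormones changed in 3 of 23 cases, against 4.48% of all genes. Ffar1, the receptor through which long-chain fatty acids raise insulin release, fell from 145.0 ± 7.71 to 113.8 ± 5.98 CPM (SD, n = 3). Its neighbour on chromosome 7, Ffar3, a receptor for short-chain fatty acids, had 13.03, 12.6 and 12.3 CPM against 7.04, 8.78 and 8.52 CPM, a fall of 0.64 log2 (SE 0.10, adjusted p 0.0277). P2ry1, a receptor for ADP that mobilises calcium, rose from 114.4, 68.4 and 102.7 CPM to 189.3, 165.3 and 165.6 CPM (log2 +0.87, SE 0.18, adjusted p 0.045). Glp1r, the incretin receptor, had 143.3, 141.9 and 126.1 CPM against 120.2, 104.8 and 115.3 CPM, without overlap, but it did not pass (adjusted p 0.0886). Hcar2, a receptor for hydroxybutyrate and niacin, rose from 0.96, 0.94 and 1.18 CPM to 4.24, 3.21 and 2.81 CPM. Cnr1, the cannabinoid receptor gene, fell from 11.1 ± 0.97 to 6.51 ± 0.73 CPM (SD, n = 3).

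Selp and Sele, adhesion genes of activated vessel walls, had the largest rises among the genes named by the rule. Selp, for P-selectin, had 1.16, 1.17 and 1.81 CPM on the standard diet and 12.2, 7.93 and 9.38 CPM on the high-fat diet, a 7.15-fold rise. Sele, for E-selectin, had 0.56, 0.38 and 0.96 CPM against 5.76, 2.66 and 2.58 CPM, a 5.83-fold rise. Both genes lie close together on chromosome 1, Sele at 164048234 to 164057677 and Selp at 164115264 to 164150026 (mm10). Of 16 genes of vessel activation only Plat, the tissue plasminogen activator gene, rose beside them (log2 +0.51), while Vcam1 differed by -0.21 and Icam1 by +0.77. All 17 endothelial markers were higher, and 0 passed in edgeR (9 at an unadjusted p under 0.05), while the DESeq2 test called 5 of them as risen. Their summed level was 565.9 to 637.3 CPM on the standard diet and 674.5 to 717.7 CPM on the high-fat diet, without overlap. Pecam1, the most widely used of them, had 53.2, 55.8 and 47.1 CPM against 57.7, 59.7 and 59.9 CPM (log2 +0.18, adjusted p 0.174). The endothelial list median was +0.27, and the part of endothelial RNA in the selectin differences was not tested. The interaction with age was +3.91 for Selp and +6.56 for Sele, with adjusted p of 0.23 and 0.165, so a difference between the ages was not shown. With the young libraries in the same fit, neither gene passed in old islets (Selp adjusted p 0.084, SE 0.91; Sele adjusted p 0.185, SE 1.07).

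Interferon targets were higher in 18 of 20 cases, and 3 rose (15%) at a list median of +0.42. Rsad2, for the antiviral protein viperin, had 9.01, 10.3 and 9.68 CPM on the standard diet and 23.5, 24.9 and 15.8 CPM on the high-fat diet (log2 +1.14, SE 0.17, adjusted p 0.0259). Mx2 rose by 1.74 (SE 0.33) and Ifit1 by 1.12 (SE 0.23). In these 3 genes high-fat sample 3 was the lowest of its group, at 15.8, 3.63 and 7.99 CPM, but above every standard-diet sample, as in every called gene. Summed over the list the diets overlapped, with 179.7 CPM in high-fat sample 3 and 198.4 CPM in standard-diet sample 2-4. Irf1, a factor of the interferon response, differed by +0.44 and did not pass. Of 16 genes of NF-kappaB feedback 3 rose (18.8%). Nfkbia, the inhibitor that NF-kappaB itself induces, had 42.6, 45.0 and 50.9 CPM against 83.8, 67.2 and 60.9 CPM (log2 +0.61, SE 0.12, adjusted p 0.0427), Nfkbiz rose by 1.11 and Tnfaip2 by 0.33. Socs3, a brake on cytokine receptors, rose by 0.66 and Pim3 by 0.43, while Stat5b, which carries the prolactin and growth hormone signal, fell from 65.0 ± 1.17 to 50.2 ± 1.03 CPM (SD, n = 3). None of 23 chemokine and cytokine genes passed in edgeR (4 at an unadjusted p under 0.05), against 3 risen in the DESeq2 test.

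Markers of acinar cells, lymphocytes, macrophages and fibroblasts had no call in edgeR. Of 24 acinar genes 23 were higher and 0 passed by edgeR or the DESeq2 test (0 at an unadjusted p under 0.05), with a list median of +0.32. All 6 tested Reg genes, which encode secreted proteins of inflamed pancreas, were higher at a median of +2.98, and 0 passed in edgeR (4 at an unadjusted p under 0.05) against 1 in the DESeq2 test. Reg3g stood at 0.38, 4.59 and 0.62 CPM against 8.20, 40.6 and 7.10 CPM. All 13 lymphocyte genes, 16 of 17 macrophage genes and 15 of 16 fibroblast and matrix genes were lower, at medians of -1.91, -0.50 and -0.99, and 0 of them passed in edgeR (5, 4 and 1 at an unadjusted p under 0.05). The DESeq2 test called 0 lymphocyte genes, 1 risen and 2 fallen macrophage genes and 1 fallen fibroblast gene. Standard-diet sample 2-4 held 644.5 CPM of fibroblast genes and 395.5 CPM of macrophage genes against 288.5 to 427.1 CPM and 183.7 to 229.4 CPM in the other standard-diet samples. Neutrophil markers were near the floor, at 0.88 to 4.08 CPM in sum over 8 genes, 1 of which was at 0 in every sample.

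Vip, a neuropeptide gene, fell most among the genes named by the rule, from 20.8, 30.6 and 23.8 CPM to 7.54, 3.43 and 5.63 CPM. Its lowest standard-diet sample was thus well above its highest high-fat sample, and the high-fat level was 0.22 times the standard one (log2 -2.17, SE 0.28, adjusted p 0.0216). Of 11 neuron markers Vip alone fell in edgeR and Tubb3, a neuronal tubulin gene that islet endocrine cells also express, rose (log2 +0.58). Others were lower without passing in edgeR, among them Chat by -0.91 and Prph by -0.99, whereas 4 of the 11, with Tubb3, were higher. The DESeq2 test called 2 of the 11 as risen and 3 as fallen. Slc5a7, the choline transporter of cholinergic nerves, is in no list and fell from 2.80, 3.25 and 3.26 CPM to 1.80, 1.29 and 1.64 CPM (log2 -0.97, SE 0.19, adjusted p 0.0403). The summed level of the neuron list was 148.7 to 157.6 CPM on the standard diet and 145.7 to 161.0 CPM on the high-fat diet. The list had a mean log2 CPM of 2.26 to 2.72 on the standard diet and 1.68 to 2.23 on the high-fat diet, and Schwann cell markers were lower in 7 of 8 cases with 0 passed by edgeR (2 at an unadjusted p under 0.05) or the DESeq2 test. The part of nerve tissue in the fall of Vip was not tested.

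Among the remaining large rises, Zbtb16, the zinc finger factor PLZF, had 1.65, 0.95 and 2.08 CPM on the standard diet and 7.86, 9.72 and 7.97 CPM on the high-fat diet (5.48-fold, adjusted p 0.0216). Its difference in young islets was +1.95. Gpr6, a receptor that raises cAMP, rose 5.07-fold to 3.81 ± 1.07 CPM (SD, n = 3), Adamts4, a protease of matrix proteoglycans, 3.92-fold, and Plaur, the urokinase receptor gene, 3.24-fold. Arrdc3, an arrestin-like protein that takes membrane receptors into the cell, had 33.4, 32.5 and 51.8 CPM against 179.4, 126.5 and 111.0 CPM. C2cd4a, near a human locus of type 2 diabetes risk, had 1.87, 1.72 and 3.15 CPM against 10.1, 7.17 and 4.98 CPM. None of these overlapped between the diets, which the naming rule required of the largest changes. Rnf39, a RING finger gene, also rose (log2 +1.85). Among the large falls, Ogt, the only enzyme that attaches O-GlcNAc to nuclear and cytosolic proteins, had 83.5, 102.2 and 106.2 CPM against 50.4, 59.2 and 64.2 CPM (log2 -0.75, SE 0.12, adjusted p 0.0277). Slc40a1, the iron exporter ferroportin, fell from 47.5 ± 8.09 to 27.1 ± 4.97 CPM (SD, n = 3), and Ass1, an enzyme of arginine synthesis, fell by 0.76. The others, Epha8, Reep1, Trim66, Dok7, Flrt1, Cecr6, Gm20342 and AI480526, fell by 0.75 to 1.27 log2.

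The diet difference was tested against that of young islets in 1 model over both ages. Of 17644 genes 36 (0.204%) passed, with 30 more positive and 6 more negative in old islets, and 25 of the 36 were among the genes called in old islets. Over all 17644 genes, 2198 reached an unadjusted p under 0.05 in edgeR, and the DESeq2 test called 513. Dusp8 had 10.4, 11.7 and 10.7 CPM in young high-fat islets and 15.6, 12.6 and 12.4 CPM in young standard-diet islets, so its difference of -0.31 there stood against +1.91 in old islets (interaction +2.21, SE 0.36, adjusted p 0.0477). Ppp1r3c, which targets a phosphatase to glycogen, had 4.24 ± 0.28 CPM on the high-fat and 9.52 ± 1.76 CPM on the standard diet in young islets, against 24.3 ± 8.02 and 10.2 ± 1.98 CPM in old islets (SD, n = 3). The high-fat level was thus the lower one at 8 weeks and the higher one at 52 weeks (interaction +2.43, SE 0.31, adjusted p 0.033). Nfil3, Arrdc3 and Hbegf also passed, with interactions of +1.54, +1.92 and +1.45, and their differences in young islets were -0.27, -0.09 and -0.39. None of the 30 immediate early genes passed the interaction in edgeR (16 at an unadjusted p under 0.05), against 6 in the DESeq2 test, all more positive in old islets. In edgeR 29 were more positive in old islets at a median of +0.87, and the median diet difference in young islets was +0.18. Likewise 0 of 22 ER chaperone genes and 0 of 23 heat shock genes passed in edgeR (6 and 12 at an unadjusted p under 0.05), against 3 of each in the DESeq2 test. The count of 36 fell to 0 when old standard-diet sample 1 or 2-4, old high-fat sample 2, young high-fat sample 1 or 3, or young standard-diet sample 3 was left out (an unadjusted p under 0.05 was then reached by 1890 to 2521 genes), and to 1 without young sample 2 of either diet. It was 10 without young standard-diet sample 1, 13 without old high-fat sample 1-4 and 69 without old high-fat sample 3.

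**Figure D4:**
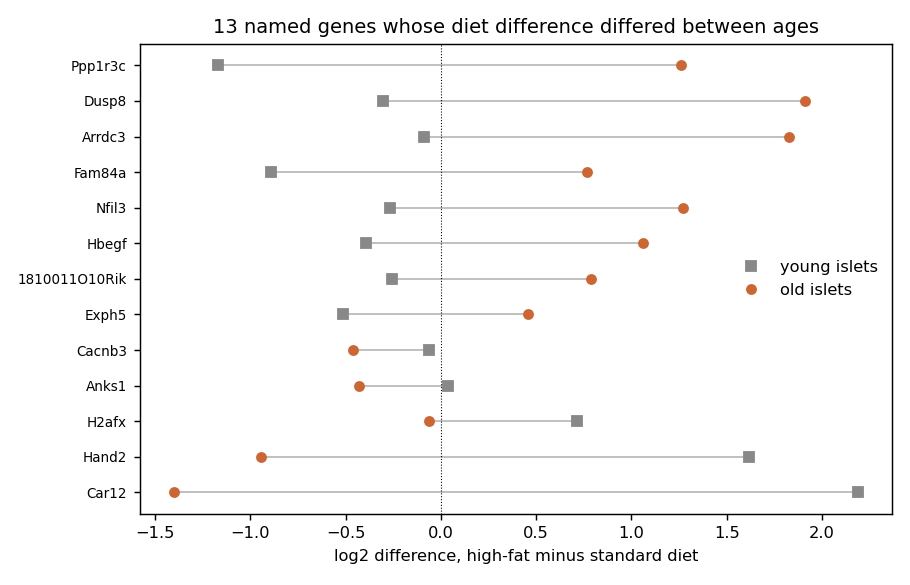
log2 diet difference (high-fat minus standard) in old islets (orange circles) and young islets (grey squares) of the 13 genes chosen by the naming rule that passed an adjusted p of 0.05 for the interaction, ordered by its size. In 8 genes the old value is right of the young one, led by Ppp1r3c and Dusp8, and in 5 it is left, led by Car12 and Hand2.

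Genes that rose and genes that fell differed in length. Among protein coding genes, the median span from the first to the last annotated base was 24.0 kb over all tested genes, 13.6 kb over 353 risen genes and 58.1 kb over 391 fallen genes. In the shortest of 4 equal groups of genes (0.102 to 9.96 kb, 3701 genes) 145 rose and 25 fell, and in the longest (58.6 to 2960 kb) 48 rose and 194 fell. Several fallen genes named above are long, such as Itpr1, Cacna1d and Acaca, and several risen ones are short, such as Ier2, Rasd1 and Sdf2l1. Others go the other way, such as the short fallen genes Mafa, Ffar3 and Vip and the long risen genes Zbtb16 and Mgll. The median log2 difference went from +0.05 in the shortest to -0.07 in the longest group in old islets, and from +0.04 to -0.06 in young islets. RNA quality values in the authors' deposited table overlapped between the diets: coverage at the 5′ end of transcripts was 0.98 to 1.00 on the standard and 0.98 to 0.99 on the high-fat diet, and duplicates were 44.4 to 52.2% and 46.5 to 52.5%. Intronic reads were 2.90 to 4.48% against 2.75 to 2.99%, and mitochondrial reads 1.52 to 2.82% against 1.86 to 1.99%. The highest values of both, 4.48% and 2.82%, belonged to standard-diet sample 3, which was also the highest of its group in most immediate early and heat shock genes. The part of these quality values in the length pattern or in that order of samples was not tested.

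**Figure D5:**
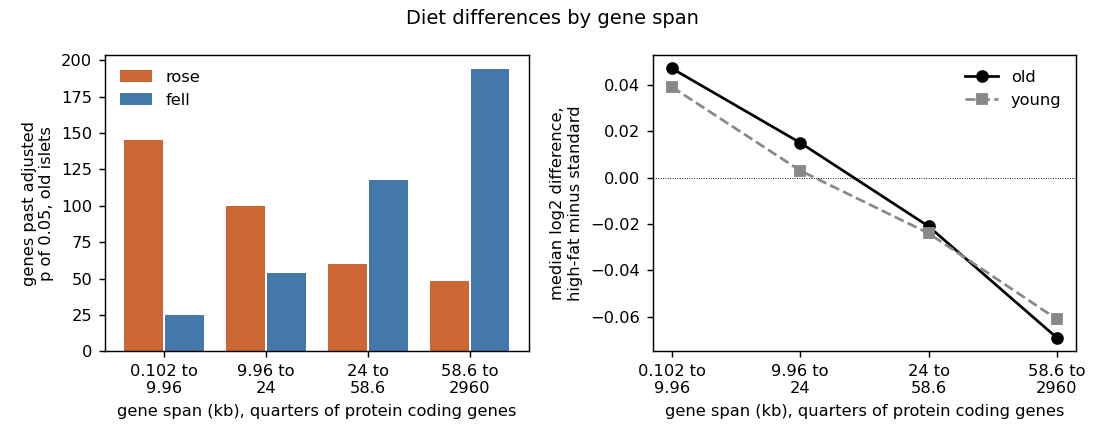
Left, number of risen (orange) and fallen (blue) genes in old islets in 4 equal groups of protein coding genes by span. Right, median log2 diet difference in the same groups in old islets (black circles) and young islets (grey squares). Fallen genes go from 25 in the shortest to 194 in the longest group, and the medians of both ages go from above to below 0.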

How the data were processed

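The submitters' processing notes name STAR 2.4.2a, the genome build mm10 and featureCounts 1.4.3. Whether the counting used strand is not given in the sources used here, so overlapping genes on opposite strands may share reads. The authors deposited raw counts per Ensembl gene (45232 genes), quality tables with percent of reads and coverage ratios, and a DESeq2 table of log2 fold changes, p-values and mean normalised signal, which served here for side-by-side counts. The quality table's read numbers were left aside.

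Libraries were compared in pairs by a chi-square per gene, divided by its expected median, over 7812 genes. The ratio was 2.89 for standard-diet libraries 2 and 4 and 3.1 for high-fat libraries 1 and 4, against 9.92 to 73.5 for the other pairs. These pairs were summed and counted as 1 sample each. Reads carry no molecular identifiers.

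Genes were tested with edgeR 4.0.16 in R 4.3.3 (TMM, filterByExpr, quasi-likelihood test, Benjamini-Hochberg adjustment over all genes, threshold 0.05, two-sided), after the method was tested on simulated data. The interaction was fitted over the 12 samples of both ages. CPM use TMM-scaled totals. List levels are means of log2 CPM with a prior count of 0.5. DESeq2 1.42.0 and limma 3.58.1 were also used.

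The members and gene lists were chosen with earlier results of these data known. Genes named are up to 15 largest rises and 15 largest falls (at least 2 CPM in the higher diet, no overlap), up to 4 members of each of 64 lists by smallest p, 5 interaction genes of each sign, and Myc, Mki67, Ccnd2, Cdkn2a, Ins1, Ins2, Gcg, Sst, Pdx1, Glp1r, Ctrb1 and Pecam1. Other list members named beside them were chosen after their values were seen. Some genes that the rule names are not reported here.

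Promoters are from RefSeq (GRCm38.p6), which had an entry for 92 of 130 named genes. On both strands, and with overlaps between motifs allowed, 11 motifs were searched: CRE (TGACGTCA), AP-1 (TGANTCA), E-box (CACGTG), ATF4 element (TGATGCAA), sterol element (TCACNCCAC), antioxidant element (TGACNNNGC), D-box (TTACGTAA), the ERSE, the heat shock element (3 triplets of TTC or GAA, 2 bases apart), the CArG box and the kappaB site. Alternatives tried were another scaling, test or filter, leaving out each sample, other ways of using the paired libraries, a replicate block, covariates for other cells and a fit with the young samples.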

Additional observations from a re-analysis of the deposited data

Results flagged for a closer look

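The diet difference differed with age, by the interaction test of edgeR over 12 samples (Benjamini-Hochberg adjusted p under 0.05), in 13 of the genes chosen by the naming rule. Of these, 10 were named because they passed this test, up to 5 in each direction, so the number and the split between directions follow from the rule; over all genes 36 passed, 30 more positive and 6 more negative. In 8 of the 13 it was more positive in old islets: Ppp1r3c by 2.43 log2, Dusp8 by 2.21, Arrdc3 by 1.92, Fam84a by 1.66, Nfil3 by 1.54, Hbegf by 1.45, 1810011O10Rik by 1.05 and Exph5 by 0.97. In Fam84a the high-fat level was 4.66 ± 0.45 CPM against 8.64 ± 1.26 CPM on the standard diet in young islets, and 9.26 ± 1.03 against 5.46 ± 0.76 CPM in old islets (SD, n = 3), so that the order of the diets turned. Exph5 did not itself pass in old islets (adjusted p 0.0512), and its level was lower on the high-fat diet in young islets.

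In the other 5 genes the difference was more negative in old islets: Car12 by -3.59 log2, Hand2 by -2.56, H2afx by -0.78, Anks1 by -0.46 and Cacnb3 by -0.41. H2afx, a histone gene, had 11.4 and 11.9 CPM on the high-fat and the standard diet in old islets and 19.4 and 11.8 CPM in young islets. Hand2, a transcription factor of neural crest derivatives, had 4.05 ± 0.93 CPM in young high-fat islets, against 0.72 to 1.39 CPM as the means of the other 3 groups. Car12 stood under 0.7 CPM in every sample. These results rest on counts of calls that go to 0 without single samples, as given above.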

How the results depend on the processing

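Of 758 calls in old islets, edgeR kept 756 among 823 with DESeq2's size factors, and the DESeq2 test called 2185 (1097 higher, 1088 lower). A filter at 2 CPM gave 1265 (578, 687), no filter 911 (513, 398), all libraries taken separately 2983 (1515, 1468), libraries 1 to 3 757, and the young libraries in the same fit 1441 (726, 715). With the acinar level as a covariate 1427 genes passed (805, 622), without both lymphocyte-rich samples 1187 (740, 447), and with the fibroblast level as covariate, which was added once the data had been seen, 298 (118, 180). The lymphocyte covariate gave 0 calls, 0 higher and 0 lower (2920 genes at an unadjusted p under 0.05). The replicate block on libraries 1 to 3 also gave 0 (3581 at such a p), but same-numbered samples did not deviate together (correlations -0.12, -0.18 and 0.06), so the numbers were not taken as pairs. Leaving out 1 sample gave 0 to 468 calls, 0 to 199 higher and 0 to 269 lower. The cause of these shifts was not tested. All 758 genes kept their sign wherever they were tested. Leaving out 1 sample could hardly turn it, since none of them overlapped between the diets. The interaction count of 36 was 513 by DESeq2, 385 with all libraries separate, 0 with the replicate block (2273 at an unadjusted p under 0.05) and 0 to 69 without 1 sample. Genes without a call changed sign in some settings. Mki67 (-0.27 log2) turned to 0.40 with the replicate block, 1.28 with the lymphocyte covariate, 1.17 without both lymphocyte-rich samples (adjusted p 0.038) and 1.12 with the fibroblast covariate, and ranged from -0.73 to 1.37 without 1 sample, the latter without standard-diet sample 2-4. Ccnd2 turned to -0.042 without both lymphocyte-rich samples and -0.018 with the fibroblast covariate (-0.027 to 0.25 without 1 sample). Gcg turned to -0.064 with all libraries and -0.045 with the acinar covariate (-0.15 to 0.23 without 1 sample), and Sst to -0.005 with all libraries and -0.063 with the lymphocyte covariate (-0.092 to 0.13). Ctrb1 turned to -0.19 with all libraries and -0.14 with the acinar covariate (-0.002 to 0.99). Count totals were at least 68395276 per library, above the deposited read numbers.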

Other observations

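Single genes outside the lists, chosen after their values were seen, also passed the threshold; they are examples, with no count of a group behind them. Krt8 and Krt18, the keratin pair of simple epithelia, rose by 1.35 and 0.92 log2 (adjusted p 0.0253 and 0.0216). The interaction of Krt18 with age also passed (+0.69, adjusted p 0.0388). The cytoskeletal genes Actb, Actg1 and Tubb6 rose by 0.88, 0.71 and 1.54. Ubb, a polyubiquitin gene that is induced by stress, rose by 0.59. Among genes of ufmylation, the attachment of a ubiquitin-like protein that acts at the ER, Ufsp2 rose by 0.36, Ufl1 by 0.34 and Cdk5rap3 by 0.26. Txnip, a glucose-induced inhibitor of thioredoxin, rose by 0.78 and C2cd4b, the paralog of C2cd4a, by 1.02.

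Fallen genes, likewise picked after their values were seen, were the huntingtin gene Htt by 0.55, Trrap, a scaffold of histone acetylation complexes, by 0.62, Prpf8, the core splicing factor, by 0.47, Igf2r by 0.46 and Ank2, a membrane anchor gene, by 0.67. All adjusted p-values are from edgeR with Benjamini-Hochberg adjustment.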
